A study of Mus musculus with 12 samples.

Results

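The genes described here are 45 mouse genes of the lysosome, chosen by name: 15 parts of its proton pump, 5 membrane proteins, 24 hydrolases and their helpers, and the regulator Tfeb. The list was drawn up with earlier results of these data known. Every probe set that the platform annotation assigns to a listed gene was taken, with no filter on its values. The value table held 100 such probe sets among its 45101, and they covered 43 of the 45 genes. Cd63 and Atp6v0c had no probe set to themselves in the annotation used here. Of the 43 genes, 41 lay far enough above background to be tested, among 12188 genes tested in all, and Ctsh and Ctss did not.

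RNA came from mouse embryonic fibroblasts (MEFs), connective tissue cells grown from embryos, and was hybridised to 12 Affymetrix arrays, with 2 in every one of the 6 groups. Cells had the solvent DMSO, the interferon IFNa (type I) or the interferon IFNg (type II), or they had AMN107 alone, with IFNa (AMN107-IFNa) or with IFNg (AMN107-IFNg). Nilotinib, the drug whose code is AMN107, was used to inhibit the c-Abl kinase, and interferon was present for 6 h. The study asked how the inhibitor bears on the interferon response. The sources used here give no dose or duration for AMN107, no interferon dose, and no strain, passage or clone of the fibroblasts. Arrays of 1 group are labelled as biological replicates, with no statement that they came from separate cultures, so the p-values below measure the spread between these arrays, which may be technical.

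The value of a probe set is a linear signal with no fixed unit, which can be compared between arrays for 1 probe set but not between genes. Differences are given as log2 of (signal + 8.66), in which 1 is close to a doubling of the signal for a bright gene and more than a doubling for a dim one, each with its standard error (SE). A gene is called higher or lower where limma's adjusted p is under 0.05. Where a gene had several probe sets, the brightest one is described.

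The arrays were not alike in quality. IFNa replicate 2 had a ratio of 5′ to 3′ signal of 0.0252 for GAPDH and of 0.212 for actin, where the other 11 arrays had 1.074 or more and 0.676 or more. The difference between the 2 arrays of a group had a standard deviation over the 41 genes of 0.398 for IFNa and of 0.0616 to 0.124 in the other groups. The actin ratio also differed between groups: 0.676 and 0.712 with DMSO, 0.791 and 0.795 with IFNg, and 0.798 to 0.830 on the 6 arrays with AMN107. The LysX control RNA, added before labelling, gave signals of 59.6 and 66.2 with DMSO, and between 36.1 and 41.4 wherever IFNg or AMN107 was present. The part of these differences in the results below was not tested. Of the 3 contrasts of AMN107 with its matched control, that between AMN107-IFNg and IFNg had both measures nearly equal (actin 0.805 and 0.801 against 0.791 and 0.795).

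Of 12 fibroblast markers, 8 lay above the array median on all 12 arrays, and Thy1, Lum and Postn did so on none. Of 11 markers of macrophages and other leukocytes, whose lysosomes are abundant, Csf1r, Laptm5 and Cd14 lay above the median on all arrays, and Ptprc, Adgre1, Itgam, Tyrobp and Cd53 on none. The summed leukocyte marker signal was 369 and 380 on the DMSO arrays, 357 and 366 with AMN107 and 297 and 310 with AMN107-IFNg. Of 5 osteoclast markers, 4 lay above the median on no array, among them Atp6v0d2 and Acp5. Of 5 epithelial markers, Epcam lay above it on all arrays, and Cdh1 and Krt18 on none. The summed signal of the epithelial markers was 164 and 167 with DMSO and 93.5 to 119.8 on the 6 AMN107 arrays, and that of the osteoclast markers 64.0 and 65.0 against 44.3 to 51.3. That of the fibroblast markers was 5732 and 5794 with DMSO, 7278 and 8107 with IFNg and 6349.6 to 6707 on the AMN107 arrays. The part of these markers in the results was not tested. In RNA from whole cultures, fewer cells of a type and less RNA per cell cannot be told apart.

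The lysosome is the acidic compartment in which a cell breaks down proteins, glycans and lipids. A proton pump in its membrane, the vacuolar ATPase, keeps it acid: the V1 sector in the cytosol splits ATP, and the V0 sector in the membrane passes the protons. Soluble hydrolases work in the lumen, and glycosylated membrane proteins line the wall and carry ions and cargo across it. Many of these genes share a promoter element, the CLEAR element, bound by TFEB and its relatives TFE3 and MITF, which move into the nucleus when mTORC1 is inactive or lysosomes are stressed.

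The core of the CLEAR element is TCACGTGA, the full element is longer and holds the core, and the core holds the E-box CACGTG, so that a match to the longer motif is also one to the shorter. RefSeq promoter windows (build GRCm38.p6, 250 bases before the transcription start and 50 after it) were given for 38 of the 45 genes, in 44 windows. Searched on both strands, 0 of the 44 windows held the full element, against 0.326% of all 32851 windows. The core was in 7 of the 44 (15.9%), against 0.974% of all windows, and the E-box in 14 (31.8%), against 7.15%. The interferon motif ISRE was in 3 windows, those of Atp6v1d, Ctss and Lamp1 (6.82% against 3.44%), and TTCNNNGAA (GAS) in 1, that of Ctsc (2.27% against 8.3%). A stretch is given for each gene with a core, since 6 of these 7 genes were called higher in the average AMN107 effect. The capitals mark each core in a stretch, and the sequences run 5′ to 3′ on the strand of the gene.
Atp6v0d1 (chr8:105566049-105566108, minus strand): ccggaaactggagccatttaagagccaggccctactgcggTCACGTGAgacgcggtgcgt
Atp6v0e (chr17:26676358-26676417, plus strand): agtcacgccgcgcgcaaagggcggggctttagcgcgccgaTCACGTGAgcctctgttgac
Atp6v1a (chr16:44139372-44139431, minus strand): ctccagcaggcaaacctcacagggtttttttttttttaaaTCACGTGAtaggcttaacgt
Mcoln1 (chr8:3500433-3500492, plus strand): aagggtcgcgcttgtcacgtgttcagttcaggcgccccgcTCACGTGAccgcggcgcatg
Ctsa (chr2:164833720-164833779, plus strand): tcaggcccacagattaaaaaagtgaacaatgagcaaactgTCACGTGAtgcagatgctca
Ctsd (chr7:142387907-142387966, minus strand): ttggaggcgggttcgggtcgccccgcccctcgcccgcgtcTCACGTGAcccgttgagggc
Gla (chrX:134601181-134601240, minus strand): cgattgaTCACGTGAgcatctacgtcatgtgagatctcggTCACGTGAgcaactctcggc

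Counted from the start base as 0, the first base of the core lies at -4 in Atp6v0d1, 2 in Atp6v0e, -132 in Atp6v1a, -46 in Mcoln1 and -99 in Ctsd. Ctsa holds the core at -13 and 4, and Gla at -228 and -195. Of the 18 genes with a window that were called higher in the average of the 3 AMN107 effects, 6 hold the core. Of the 6 called lower, 0 hold it, and of the 11 called in neither direction, 1 does, Atp6v1a. The shorter E-box is held by 9 of the 18, 3 of the 6 and 2 of the 11. These counts describe letters in a window and carry no test. Few genes hold the core, so the counts do not show that it divides the genes. The average calls of Tfeb, Naglu, Man2b1 and Atp6ap2 were lost in most fits that left out 1 array.

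AMN107 was compared with its matched control in 3 states: without interferon, with IFNa and with IFNg. By the average over the 3 states the highest of the lysosome genes were 1 subunit of the pump's membrane sector, Atp6v0d1 (1.27), and the membrane proteins Lamp2 (0.66) and Scarb2 (0.64), followed by Atp6v1g1, Psap and Mcoln1, while most pump subunits were called in none of the 3 states. Averaged over the 3 states, 20 of the 41 genes were called higher and 6 lower, where 26% of all genes tested were called higher and 22% lower. The median log2 difference was 0.17 over the 41 genes and -0.0024 over all genes. The single contrasts share no arrays with each other, and the average is built from all of them.

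Without interferon, 15 of 41 genes were called higher and 1 lower, against 20.7% and 14% of all genes. With IFNa, 8 were called higher and 4 lower, against 11.3% and 14.8%. With IFNg, 7 were called higher and 2 lower, against 13.4% and 5.76%, so that the share of higher calls (17.1%) lay near that of all genes. The 2 IFNa arrays widen the spread that all groups share in the fit. When both were left out, 21 genes were called higher and 3 lower without interferon (32.2% and 22.8% of all genes), and 19 higher and 3 lower with IFNg (25.9% and 14.5%).

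Scaling bears on these counts, since the deposited arrays do not share 1 mean. After quantile normalization, AMN107 minus DMSO had 12 genes higher and 2 lower, and over all genes the split turned from 2528 higher and 1707 lower to 1681 and 2633. The average effect then had 16 higher and 7 lower (all genes 2552 and 3512, against 3173 and 2683). The effect with IFNg then had 6 and 3 (10% and 8.05% of all genes). Centring each array on its median gave 17 and 1 (24.6% and 9.87% of all genes), 21 and 5 (27.7% and 19.3%), and 9 and 2 (15% and 4.6%) in the same order. Several calls for AMN107 minus DMSO were lost without DMSO replicate 1, a fit that leaves that group 1 array. The calls of Atp6v0d1, Lamp2, Scarb2, Mcoln1, Ctsa, Psap and Ppt1 in that contrast held in each of the fits that left out 1 array. Calls for AMN107-IFNg minus IFNg were also lost with AMN107-IFNg replicate 1 left out. The same held for AMN107-IFNa minus IFNa with AMN107-IFNa replicate 1 left out. Shares over all genes are not given for these fits.

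**Figure D1:**
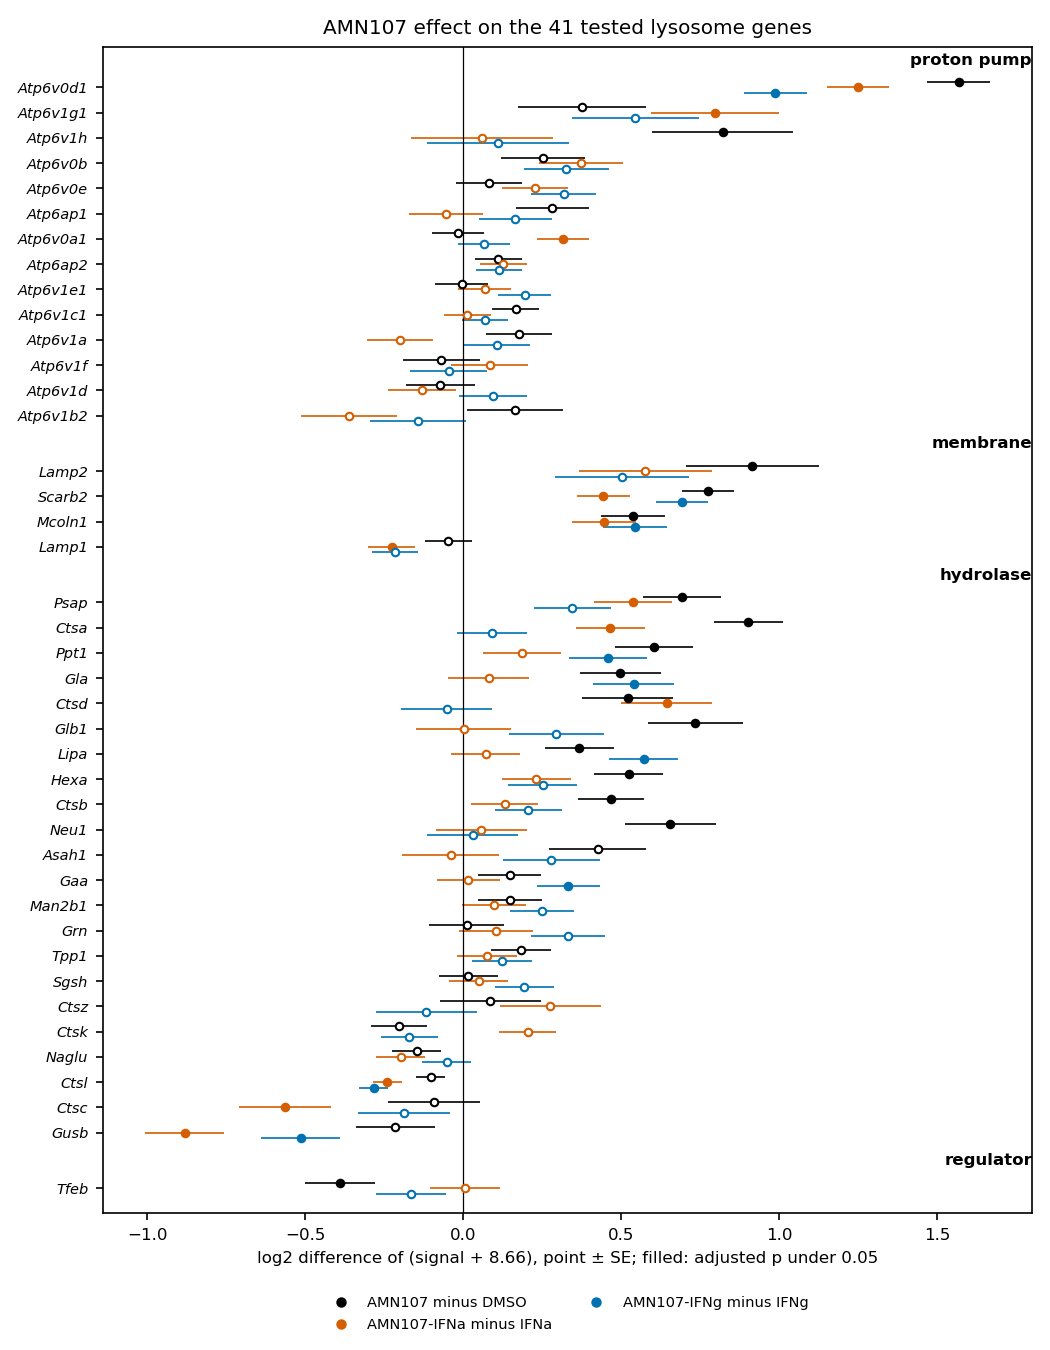
Each row is 1 of the 41 tested genes, ordered within the proton pump, membrane, hydrolase and regulator groups by the average AMN107 effect; the horizontal axis is the log2 difference of (signal + 8.66), with a point and a bar of ± SE for each of the 3 contrasts, filled where adjusted p is under 0.05. Atp6v0d1 lies at 0.99 to 1.57 in the 3 contrasts, Lamp2, Scarb2 and Mcoln1 lie above 0.4 in each, and most pump subunits lie near 0.

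Among the 14 tested genes of the proton pump, 5 were called higher and 0 lower in the average AMN107 effect (26% and 22% of all genes). The median difference was 0.12. Of the 4 tested subunits of V0, 3 were called higher (median 0.26), of the 8 of V1 it was 1 (median 0.055), and of the 2 accessory proteins 1. Without interferon the medians were 0.17 for V0 and 0.16 for V1, and the sectors were not tested against each other. Without interferon the pump genes called higher were Atp6v0d1 and Atp6v1h, 14.3% of the 14, where 20.7% of all genes were called.

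Atp6v0d1 encodes subunit d, which couples the rotating proteolipid ring of V0 to the central stalk. Its signal was 156 and 161 on the DMSO arrays, 182 and 222 with IFNa, 247 and 238 with IFNg, 495 and 477 with AMN107, 494 and 487 with AMN107-IFNa, and 484 and 496 with AMN107-IFNg. The 6 arrays with AMN107 lay within 477 to 496, above all 6 arrays without it. The log2 rise was 1.57 without interferon (SE 0.0989, adjusted p = 4.36e-06), 1.25 with IFNa (adjusted p = 3.49e-05) and 0.99 with IFNg (adjusted p = 0.00011). By the average effect of 1.27 it ranked 54 of 12188 genes.

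Atp6v1g1 encodes subunit G of the peripheral stalk, which holds V1 against V0. Its signal was 1298 and 1241 with DMSO, 1231 and 673 with IFNa, 1100 and 1010 with IFNg, 1672 and 1627 with AMN107, 1628 and 1546 with AMN107-IFNa, and 1563 and 1521 with AMN107-IFNg. All AMN107 arrays lay above all others, and the lowest value was on IFNa replicate 2. The average rise was 0.57 (SE 0.116, adjusted p = 0.00235), and of the single states only the one with IFNa was called (0.80, adjusted p = 0.0158). It was lost without either AMN107-IFNa array (adjusted p = 0.0983 and 0.0648), and it was 0.36 without IFNa replicate 2 and 1.23 without IFNa replicate 1. A second probe set of the gene, at 1085 to 1387 on all arrays, had an average difference of 0.03 (adjusted p = 0.77).

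Atp6v0b, a proteolipid of the ring, was at 963 and 953 with DMSO, 986 and 734 with IFNa, 835 and 769 with IFNg, 1170 and 1117 with AMN107, 1102 and 1108 with AMN107-IFNa, and 1116 and 908 with AMN107-IFNg. It rose by 0.32 on average (SE 0.077, adjusted p = 0.00635), and in no single state did it pass the threshold. The AMN107-IFNg arrays overlapped the arrays without AMN107. The small subunit gene Atp6v0e rose by 0.21 on average (adjusted p = 0.015, and 0.0683 after quantile normalization), and the accessory gene Atp6ap2, the prorenin receptor, by 0.12 (adjusted p = 0.0445). The Atp6ap2 call was lost in 9 of the 12 fits that left out 1 array.

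Atp6v1h encodes subunit H, which holds the V1 ATPase inactive when the sectors part. Its signal was 328 and 345 with DMSO, 399 and 782 with IFNa, 513 and 547 with IFNg, 590 and 611 with AMN107, 597 and 570 with AMN107-IFNa, and 555 and 590 with AMN107-IFNg. The DMSO arrays stood below all others, and every other group lay within the range of the IFNa pair. AMN107 minus DMSO was 0.82 (SE 0.224, adjusted p = 0.0175), against 0.06 with IFNa and 0.11 with IFNg. The difference of 0.82 was no longer called when either DMSO array or either AMN107 array was left out (adjusted p = 0.0658 to 0.0984).

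The V1 subunit with the smallest average effect was Atp6v1f, of the central stalk, at -0.01 (SE 0.0705, adjusted p = 0.913). Its signal was 2250 and 2125 with DMSO, 2330 and 1663 with IFNa, 2138 and 2069 with IFNg, 2085 and 2082 with AMN107, 2025 and 2150 with AMN107-IFNa, and 2024 and 2048 with AMN107-IFNg. The 6 AMN107 arrays lay within the range of the 6 others, whose low end was IFNa replicate 2 alone (1663). AMN107-IFNa replicate 1 and both AMN107-IFNg arrays lay below all the other arrays without AMN107. The DMSO pair lay above the AMN107 and AMN107-IFNg pairs. The catalytic subunit Atp6v1a was at 0.03 on average (adjusted p = 0.723), though a second, dimmer probe set of it was at 125 and 126 with DMSO and 337 and 351 with AMN107 (log2 difference 1.39, adjusted p = 0.0131). The other V1 subunits, Atp6v1b2, Atp6v1c1, Atp6v1d and Atp6v1e1, had average differences of -0.11 to 0.09 on their brightest probe sets and were not called. Both dimmer probe sets of Atp6v1c1, whose protein is subunit C, were called higher on average (0.57 and 0.23), as was 1 of the 2 of Atp6v1d (0.30), subunit D of the central stalk. The Atp6v1c1 probe set at 0.57 had signals of 244 and 264 with DMSO, 294 and 309 with IFNa, 338 and 339 with IFNg, and 424 to 491 on the 6 AMN107 arrays. Atp6v0a1, which forms the proton path of V0, had an average of 0.12 (adjusted p = 0.0582), and its 2 other probe sets were called lower, at -0.66 and -0.19.

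**Figure D2:**
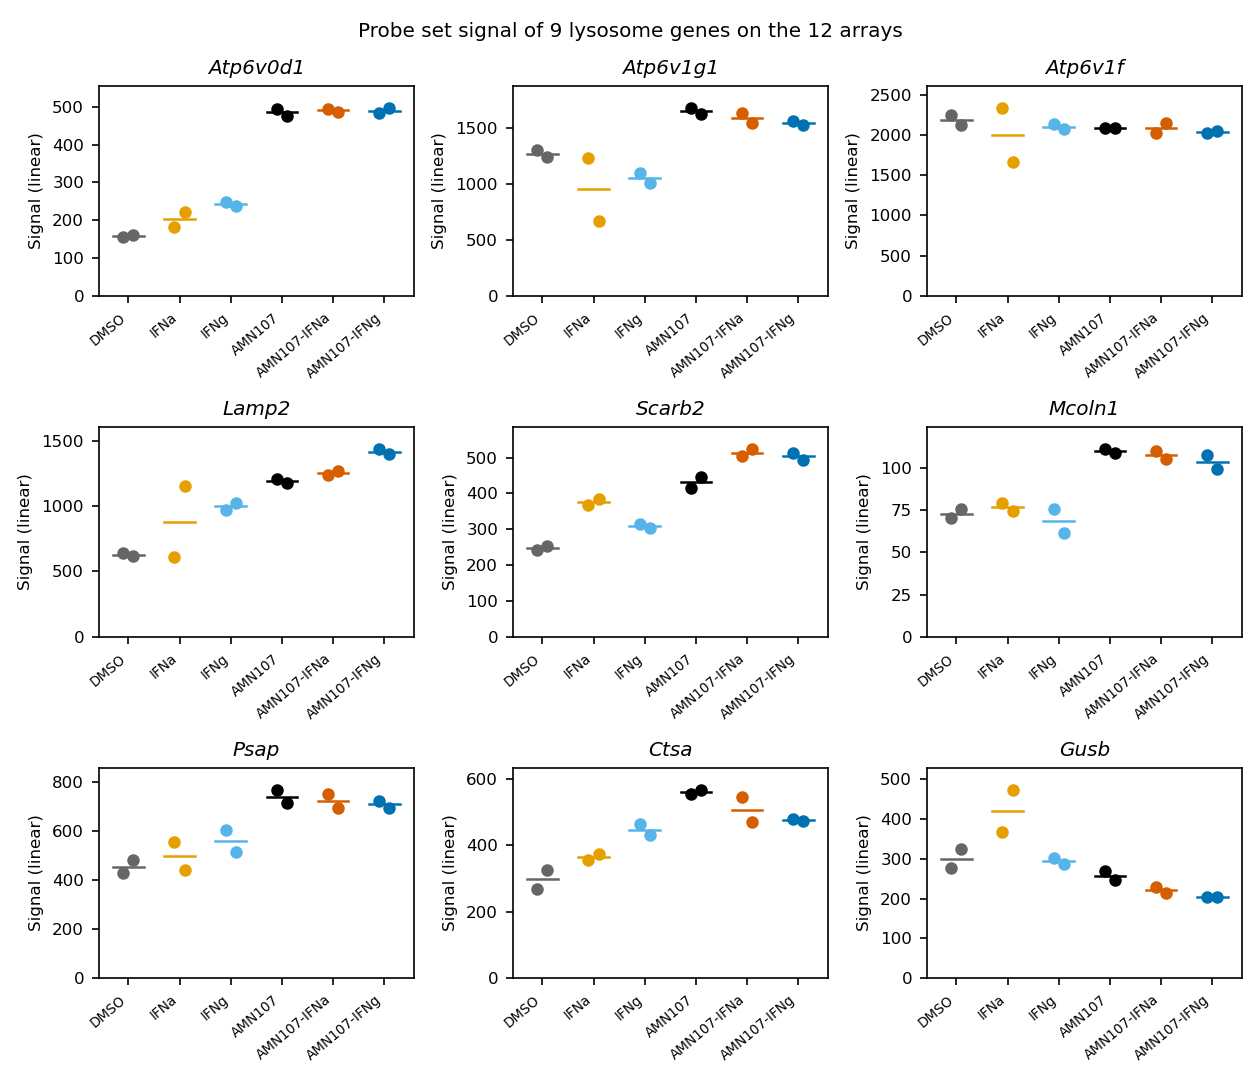
Linear probe set signal (vertical axes, from 0) of 9 genes in the 6 groups (horizontal axes); points are single arrays and lines are the means of 2 arrays. For Atp6v0d1, Atp6v1g1, Lamp2, Scarb2, Mcoln1, Psap and Ctsa every array with AMN107 lies above every array without it. For Gusb every one lies below. For Atp6v1f the arrays with AMN107 lie within the range of those without it, whose lowest value is on IFNa replicate 2.

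The membrane proteins were the group with the largest median difference, 0.57 in the average AMN107 effect. Of the 4 tested genes, 3 were called higher and 1 lower (26% and 22% of all genes). The median was 0.66 without interferon, 0.44 with IFNa and 0.52 with IFNg. Those called higher were Lamp2, Scarb2 and Mcoln1, and the one called lower was Lamp1. With 4 genes the median rests on the choice of members. Over 15 other tested lysosome membrane proteins, from the further list described below, the median of the average effect was -0.0053, with 6 called higher and 2 lower. That median was near the -0.0024 of all genes.

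Lamp2 is an abundant glycoprotein of the lysosomal wall, and 1 of its isoforms is the receptor of chaperone-mediated autophagy. Its signal was 639 and 617 with DMSO, 607 and 1151 with IFNa, 971 and 1024 with IFNg, 1208 and 1174 with AMN107, 1233 and 1269 with AMN107-IFNa, and 1432 and 1401 with AMN107-IFNg. The AMN107 arrays lay above all others, IFNg lay between, and the 2 IFNa arrays fell on either side of the IFNg pair. AMN107 minus DMSO was 0.91 (SE 0.211, adjusted p = 0.00823). The differences with IFNa (0.58, adjusted p = 0.0692) and with IFNg (0.50, adjusted p = 0.125) did not pass. All 4 tested probe sets of Lamp2 were called higher in the average effect, by 0.30 to 0.66.

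Scarb2 encodes LIMP-2, the receptor that carries glucocerebrosidase to the lysosome. Its signal was 244 and 253 with DMSO, 366 and 384 with IFNa, 314 and 303 with IFNg, 416 and 446 with AMN107, 504 and 522 with AMN107-IFNa, and 512 and 494 with AMN107-IFNg. The groups without AMN107 did not overlap each other, and each lay below all AMN107 arrays. AMN107 raised it by 0.77 without interferon (SE 0.0824, adjusted p = 0.000111), by 0.44 with IFNa (adjusted p = 0.00349) and by 0.69 with IFNg (adjusted p = 0.000324).

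Mcoln1 encodes TRPML1, the channel that lets calcium and other cations out of the lysosome. Its signal was 70.3 and 75.3 with DMSO, 79.2 and 74.2 with IFNa, 75.7 and 61.3 with IFNg, 111 and 108 with AMN107, 110 and 105 with AMN107-IFNa, and 108 and 99.3 with AMN107-IFNg. The 6 AMN107 arrays lay above the other 6, with no clear order among the groups on either side. The rise was 0.54 without interferon (SE 0.101, adjusted p = 0.00284), 0.44 with IFNa (adjusted p = 0.00945) and 0.54 with IFNg (adjusted p = 0.00416). The call with IFNa was lost without AMN107-IFNa replicate 1 (adjusted p = 0.0736), and that with IFNg without AMN107-IFNg replicate 1 (adjusted p = 0.0513).

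Lamp1, the partner glycoprotein of Lamp2, went the other way. Its signal was 1504 and 1652 with DMSO, 1681 and 1846 with IFNa, 1728 and 1687 with IFNg, 1521 and 1528 with AMN107, 1538 and 1470 with AMN107-IFNa, and 1484 and 1454 with AMN107-IFNg. The average difference was -0.16 (SE 0.0427, adjusted p = 0.00944), and without interferon the AMN107 arrays lay within the DMSO pair (-0.05, adjusted p = 0.642).

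Atp6v0d1, Scarb2 and Mcoln1 were the 3 genes called higher in all 3 states, where 6.2% of all genes were. None of the 41 was called lower in all 3, where 2.95% of all genes were, and 18 of 41 were called in none, where 50.9% of all genes were. All 6 AMN107 arrays lay above all 6 others for 11 of the 41 genes (background 12.7%): Atp6v0d1, Atp6v0e, Atp6v1g1, Atp6ap2, Lamp2, Scarb2, Mcoln1, Ctsa, Hexa, Man2b1 and Psap. They lay below for Ctsl and Gusb (background 8.12%). By this count the pump had 4 of 14, the membrane proteins 3 of 4 and the hydrolases 4 of 22.

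Of the 22 tested hydrolases and helpers, 12 were called higher and 4 lower in the average AMN107 effect, with a median of 0.19. Over all genes 26% were called higher and 22% lower in that effect. Without interferon it was 10 hydrolases higher and 0 lower (median 0.27), against 20.7% and 14% of all genes. With IFNa it was 3 and 3 (0.077), against 11.3% and 14.8%, and with IFNg 4 and 2 (0.20), against 13.4% and 5.76%. The shares of higher calls with IFNa (13.6%) and IFNg (18.2%) lay near those of all genes. Of 7 tested cathepsins 3 were called higher and 2 lower on average, of 9 glycan-degrading enzymes 6 and 2, and of 6 lipid enzymes and others 3 and 0. Among the 6, Gaa and Man2b1 were not called after quantile normalization. With 1 array left out the averages were 0.13 to 0.21 for Gaa, 0.17 to 0.32 for Neu1 and 0.12 to 0.21 for Man2b1, and many of those fits lost the call.

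Psap encodes the precursor of the saposins, small proteins that present lipids to hydrolases. Its signal was 429 and 482 with DMSO, 556 and 442 with IFNa, 603 and 514 with IFNg, 766 and 714 with AMN107, 753 and 694 with AMN107-IFNa, and 723 and 697 with AMN107-IFNg. The AMN107 arrays lay above all others. The rise was 0.69 without interferon (SE 0.123, adjusted p = 0.00219) and 0.54 with IFNa (adjusted p = 0.01), and the difference with IFNg was 0.35 (adjusted p = 0.0757). The call with IFNa was lost without AMN107-IFNa replicate 1 (adjusted p = 0.0873).

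Ctsa encodes cathepsin A, also called protective protein, which holds beta-galactosidase (Glb1) and the sialidase Neu1 in a complex. Its signal was 268 and 325 with DMSO, 354 and 373 with IFNa, 464 and 429 with IFNg, 554 and 565 with AMN107, 545 and 468 with AMN107-IFNa, and 478 and 473 with AMN107-IFNg. A second, dim probe set had an average AMN107 difference of -0.14 and was not called. On the brightest probe set the 6 AMN107 arrays lay above the others. The margin was narrow for AMN107-IFNa replicate 2 (468) and for both AMN107-IFNg arrays (478 and 473), against 464 on IFNg replicate 1. The rise was 0.90 without interferon (SE 0.11, adjusted p = 0.000245) and 0.47 with IFNa (adjusted p = 0.0114, and 0.118 without AMN107-IFNa replicate 1), and the difference with IFNg was 0.09 (adjusted p = 0.61).

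Both partners of cathepsin A rose without interferon. Glb1 was at 44.1 and 53.5 with DMSO, 62.4 and 94.7 with IFNa, 65.0 and 60.0 with IFNg, 88.3 and 85.0 with AMN107, 79.1 and 75.1 with AMN107-IFNa, and 76.6 and 80.6 with AMN107-IFNg. Its rise over DMSO was 0.73 (SE 0.15, adjusted p = 0.00455), and with IFNa its difference had an adjusted p of 0.997. Neu1 was at 34.0 and 40.3 with DMSO, 49.2 and 70.8 with IFNa, 62.1 and 52.3 with IFNg, 63.3 and 63.3 with AMN107, 66.7 and 57.4 with AMN107-IFNa, and 58.5 and 58.3 with AMN107-IFNg. It rose by 0.65 over DMSO (SE 0.144, adjusted p = 0.00646), and was at 0.06 with IFNa and 0.03 with IFNg. For both genes DMSO was the low group, and without DMSO replicate 1 neither rise was called (adjusted p = 0.052 for Glb1 and 0.0647 for Neu1).

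Ppt1, a thioesterase that takes palmitate off proteins, was at 130 and 147 with DMSO, 158 and 213 with IFNa, 152 and 152 with IFNg, 215 and 214 with AMN107, 211 and 208 with AMN107-IFNa, and 215 and 209 with AMN107-IFNg. Only IFNa replicate 2 reached the range of the AMN107 arrays. The rise was 0.60 without interferon (SE 0.123, adjusted p = 0.00439) and 0.46 with IFNg (adjusted p = 0.0257), and the latter was lost when any of its 4 arrays was left out (adjusted p = 0.0982 to 0.148).

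Further genes called higher without interferon were the cathepsin genes Ctsb (0.47) and Ctsd (0.52), the glycan enzymes Gla (0.50), which removes galactose from globotriaosylceramide, and Hexa (0.52), which acts on GM2 ganglioside, and the acid lipase gene Lipa (0.37). Ctsb and Hexa were lost without DMSO replicate 1 (adjusted p = 0.057 and 0.0551). Ctsd, Gla (then at 0.32) and Lipa were lost in that fit and in others that left out 1 DMSO or AMN107 array (adjusted p = 0.0567 to 0.183), and after quantile normalization. With IFNg, Gla (0.54) and Lipa (0.57) were called higher. The Gla call was lost when any of its 4 arrays was left out (adjusted p = 0.0716 to 0.099), and that of Lipa without AMN107-IFNg replicate 1 (adjusted p = 0.0626). Ctsd was at -0.05 with IFNg (adjusted p = 0.833). With IFNa, Ctsd was called higher, at 0.64, and was at 0.38 without IFNa replicate 2. That call with IFNa was lost without AMN107-IFNa replicate 1. Ctsd signal was 552 and 512 with IFNg against 364 and 388 with DMSO, and 497 to 571 on the 6 AMN107 arrays.

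Gusb, beta-glucuronidase, had the largest fall. Its signal was 277 and 324 with DMSO, 366 and 472 with IFNa, 302 and 287 with IFNg, 268 and 246 with AMN107, 229 and 215 with AMN107-IFNa, and 203 and 204 with AMN107-IFNg. All AMN107 arrays lay below all others. The difference was -0.22 without interferon (adjusted p = 0.199), -0.88 with IFNa (SE 0.125, adjusted p = 0.00085) and -0.51 with IFNg (adjusted p = 0.0165). The call with IFNg was lost when any of its 4 arrays was left out (adjusted p = 0.0649 to 0.104), and a second, dimmer probe set was at -0.06 on average.

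Ctsl, a cysteine protease, fell by 0.21 on average (SE 0.0264, adjusted p = 0.000109). Its signal was 4876 and 4912 with DMSO, 5055 and 4975 with IFNa, 4846 and 4978 with IFNg, 4551 and 4558 with AMN107, 4166 and 4323 with AMN107-IFNa, and 4005 and 4062 with AMN107-IFNg. The groups with and without AMN107 did not overlap. Ctsc, which activates granzymes and other serine proteases, was at -0.56 with IFNa (adjusted p = 0.0177), a call lost without either AMN107-IFNa array (adjusted p = 0.0749 and 0.0976), and at -0.32 without IFNa replicate 2. Naglu, an enzyme of heparan sulfate breakdown, was at -0.13 on average (adjusted p = 0.0317), lost in 9 of the 12 fits that left out 1 array.

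The hydrolase gene with the smallest average effect was Ctsk, whose protein is the collagen-degrading cathepsin of osteoclasts. Its signal was 33.7 and 30.7 with DMSO, 24.1 and 25.9 with IFNa, 29.6 and 34.9 with IFNg, 27.8 and 25.8 with AMN107, 31.8 and 28.5 with AMN107-IFNa, and 27.2 and 28.0 with AMN107-IFNg. The average difference was -0.06 (adjusted p = 0.386). Ctss, the cathepsin of antigen-presenting cells, gave 3.44 to 4.91 on the 12 arrays and Ctsh gave 9.66 to 14.9 over its probe sets, below the array medians of 20.6 to 22.8, so that neither was tested.

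Tfeb, the regulator, was called lower with AMN107 without interferon. Its signal was 105 and 105 with DMSO, 88.8 and 67.3 with IFNa, 89.4 and 93.2 with IFNg, 81.2 and 75 with AMN107, 78.4 and 77.1 with AMN107-IFNa, and 82.8 and 78.2 with AMN107-IFNg. The DMSO arrays were the highest. The difference was -0.39 without interferon (SE 0.111, adjusted p = 0.0207), 0.01 with IFNa and -0.17 with IFNg. The call was lost when any DMSO or AMN107 array was left out (adjusted p = 0.0576 to 0.133). An array measures Tfeb RNA and says nothing of where the protein is.

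**Figure D3:**
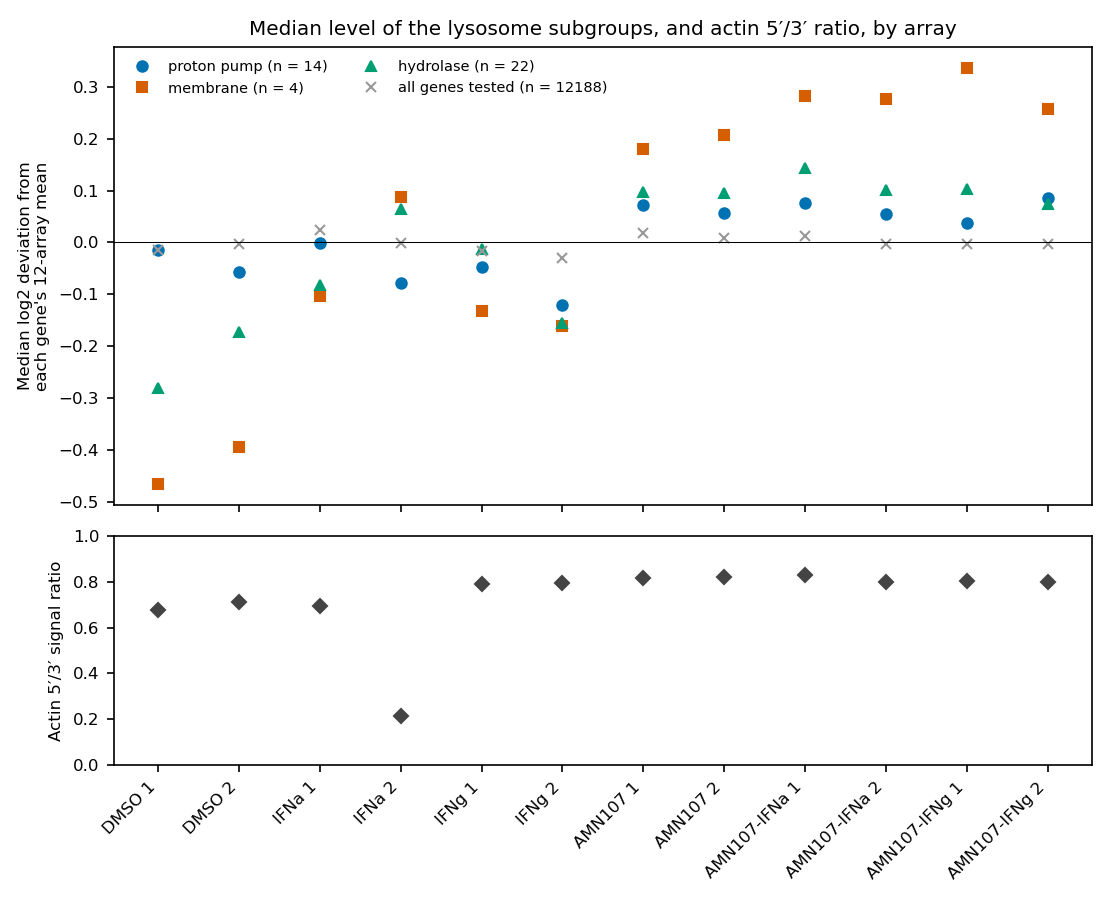
The upper panel gives, for each of the 12 arrays, the median over the genes of a group of the log2 deviation from each gene's mean over 12 arrays (proton pump, membrane, hydrolase, all genes tested); the lower panel gives the actin 5′/3′ signal ratio of the same array. The membrane median is -0.466 and -0.394 on the DMSO arrays and 0.18 to 0.337 on the AMN107 arrays, and the DMSO arrays and both IFNa arrays have the lowest actin ratios.

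By array, the median deviation of the 22 hydrolases from each gene's own mean was -0.281 and -0.173 with DMSO and 0.0738 to 0.143 on the 6 AMN107 arrays. For the 14 pump genes it was -0.0153 and -0.057 with DMSO and 0.0384 to 0.0857 with AMN107, and for the 4 membrane proteins -0.466 and -0.394 against 0.18 to 0.337. In all 3 groups of genes the 6 AMN107 arrays lay above the other 6. The nearest array without AMN107 was IFNa replicate 2, at 0.0883 for the membrane proteins and 0.0643 for the hydrolases, where IFNa replicate 1 was at -0.103 and -0.0821. The median AMN107 effect of each of the 3 groups was above 0 in all 3 states, and it stayed so after quantile normalization and after median centring; the smallest was that of the pump without interferon after quantile normalization, at 0.015. The membrane and hydrolase medians were lowest on the DMSO arrays. The actin ratio was 0.676 and 0.712 there, 0.696 on IFNa replicate 1 and 0.212 on IFNa replicate 2, and its part in these medians was not tested. Against IFNg, with actin ratios of 0.791 and 0.795, the AMN107-IFNg medians were higher by 0.52 for the membrane proteins, 0.20 for the hydrolases and 0.11 for the pump, in log2 difference of the fit. In that contrast the share of the 41 genes called higher (17.1%) lay near that of all genes (13.4%).

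In the interferon comparisons, IFNa minus DMSO had 11 genes called higher and 2 lower (12.8% and 4.68% of all genes), 3 and 1 of them in the pump, 1 and 0 among the membrane proteins and 7 and 0 among the hydrolases. All rest on the IFNa arrays described above. Of the 13 calls, 0 held in each fit that left out 1 array, and without IFNa replicate 2 the count was 3 higher and 1 lower, without IFNa replicate 1 it was 20 and 10. After quantile normalization it was 3 and 2, and after median centring 18 and 2, with 466 and 579, and 2964 and 325, over all genes against 1566 and 570. The pump median was -0.008, and it was -0.13 after quantile normalization and 0.071 after median centring.

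Lipa, lysosomal acid lipase, which frees cholesterol and fatty acids, had 98.7 and 113 with DMSO, 163 and 189 with IFNa, 132 and 130 with IFNg, 130 and 147 with AMN107, 190 and 179 with AMN107-IFNa, and 210 and 188 with AMN107-IFNg. Both IFNa arrays lay above both DMSO arrays, and both arrays with each interferon plus AMN107 lay above the AMN107 pair. IFNa minus DMSO was 0.69 (SE 0.109, adjusted p = 0.00749, and 0.0994 without DMSO replicate 1). It was the 1 gene of the 41 called in an interferon response under AMN107, at 0.50 with IFNg (adjusted p = 0.0376). That call was lost in 10 of the 12 fits that left out 1 array. In a fit over all probe sets the difference was 0.50 (adjusted p = 0.0628), and its 2 other probe sets were at 0.55, with no overlap between the pairs (adjusted p = 0.277), and at 0.25 (adjusted p = 0.966).

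Of the other named IFNa calls, Atp6v1h (0.72, adjusted p = 0.0497) rested on IFNa replicate 2, at 782 against 399 on replicate 1, and was at 0.24 without it. Scarb2 was at 0.58 (SE 0.0824, adjusted p = 0.0039) with both IFNa arrays above both DMSO arrays, and was lost without DMSO replicate 1 (adjusted p = 0.0625). Glb1 was at 0.58 (adjusted p = 0.036) and at 0.31 without IFNa replicate 2. Tfeb and the V0 gene Atp6v0a1 were the 2 called lower, at -0.40 and -0.43, and neither was called without DMSO replicate 1 (adjusted p = 0.191 and 0.139). Tfeb was at -0.22 without IFNa replicate 2 (adjusted p = 0.134).

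IFNg minus DMSO had 4 genes called higher and 0 lower, against 6.12% and 2.93% of all genes. They were Atp6v0d1 (0.59, SE 0.0989, adjusted p = 0.00486), Ctsa (0.58, SE 0.11, adjusted p = 0.00933), Scarb2 (0.30, adjusted p = 0.047) and Neu1 (0.52, adjusted p = 0.0478). In each the IFNg pair lay above the DMSO pair. Without DMSO replicate 1 none of the 4 was called, nor without IFNg replicate 1 (adjusted p = 0.0538 to 0.296), and with both IFNa arrays left out of the fit 13 genes were called higher and 6 lower (16.2% and 14.4% of all genes). After quantile normalization the counts were 3 and 2 (all genes 686 and 899, against 746 and 357). The median over the pump was -0.014 and it was 0.015 after median centring.

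**Figure D4:**
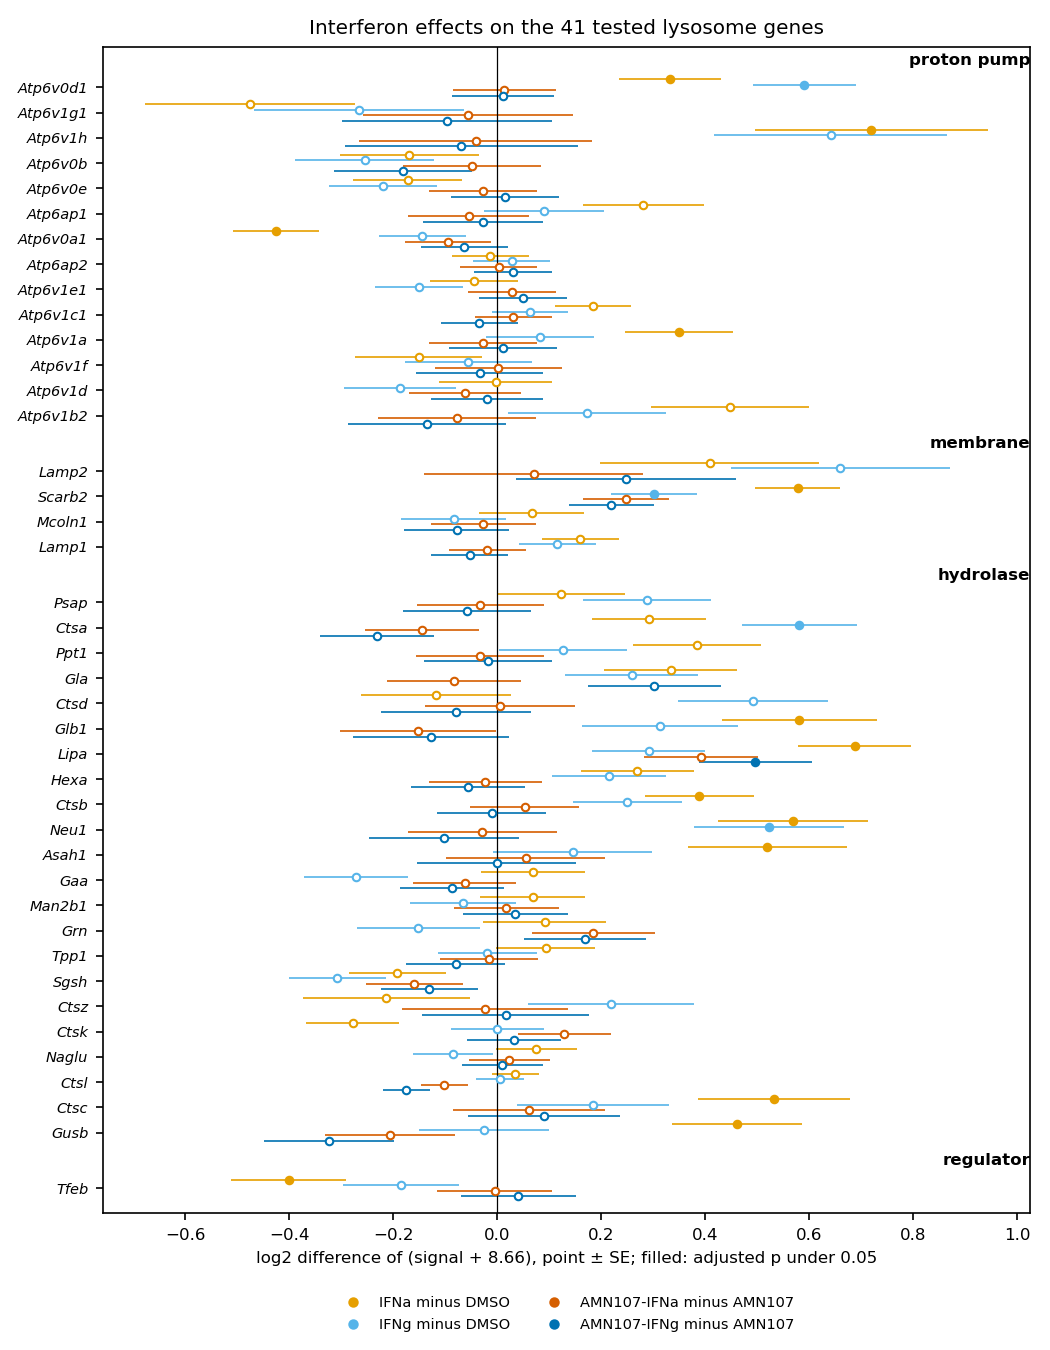
Rows are the 41 tested genes in the order of the AMN107 plot; the horizontal axis is the log2 difference of (signal + 8.66) with ± SE for IFNa and IFNg, without AMN107 (against DMSO) and with it (against AMN107), filled where adjusted p is under 0.05. Points without AMN107 spread from -0.48 to 0.72, points with it from -0.32 to 0.50, and Lipa is the 1 filled point with AMN107.

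With AMN107 present, IFNa changed 0 of the 41 genes by limma's adjusted p (0.254% of all genes were called higher and 0% lower), and IFNg 1, Lipa (2.49% higher and 0.107% lower). At an unadjusted p under 0.05 there were 3 genes for IFNa and 5 for IFNg. When both IFNa arrays were left out of the fit, 1 gene was called higher under AMN107-IFNa minus AMN107 (0.952% of all genes higher and 0.0738% lower), and 3 higher and 2 lower under AMN107-IFNg minus AMN107 (4.81% and 2.36%).

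Whether AMN107 changes the interferon response of a gene is the interaction, the response with AMN107 minus that without. For IFNa, 0 of the 41 passed (background 0.205% lower and 0% higher), with 16 at an unadjusted p under 0.05. The count was larger without IFNa replicate 1, when IFNa rested on replicate 2 alone. The median of this interaction over all genes was -0.074, and 0.044 after quantile normalization and -0.16 after median centring. For IFNg, 1 passed, Ctsa, at -0.81 (SE 0.155, adjusted p = 0.0396), against 0.131% of all genes higher and 0.894% lower. Ctsa signal went from 268 and 325 to 464 and 429 with IFNg in the absence of AMN107, and from 554 and 565 to 478 and 473 in its presence. The adjusted p was 0.204 without DMSO replicate 1, up to 0.219 in the fits that left out 1 array, and 0.0638 after quantile normalization. Without both IFNa arrays 2 genes were called higher and 8 lower for this interaction (3.62% and 9.35% of all genes).

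Most genes had more than 1 probe set to look at: of the 41, 24 had several that were tested, 80 probe sets in all. In the average AMN107 effect, 41 of the 80 were called higher and 8 lower, against 27% and 19.3% of all tested probe sets. Of the 24 genes, 6 had all probe sets higher, 12 had some, 4 had none, 2 had some lower, and 0 had calls in both directions. Lamp2, Scarb2, Mcoln1, Atp6ap2 and Ctsb were among the 6. In Ctsb, the 4 other probe sets rose by 0.36 to 1.40 on average, more than the 0.27 of the brightest, and the largest of these was at 168 and 192 with DMSO, 250 and 106 with IFNa, 476 and 463 with IFNg and 600 to 754 with AMN107. The actin ratio was 0.791 and 0.795 on the IFNg arrays and 0.212 on IFNa replicate 2, and its part in these values was not tested.

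Of 85 other lysosome genes on a list of further pump subunits, hydrolases, membrane proteins, sorting factors and regulators, 66 were tested. In the average AMN107 effect 26 were called higher and 12 lower, beside the 26% and 22% of all genes given above, and the median was 0.059. By sort, 2 of 4 further pump subunits were called higher and 0 lower, 7 and 6 of 20 hydrolases, 6 and 2 of 15 membrane proteins, 5 and 1 of 9 sorting factors, 6 and 3 of 15 regulators, and 0 of 3 cysteine protease inhibitors. The largest rises were those of Laptm4a, a small membrane protein (1.11), the iduronate sulfatase gene Ids (0.84) and Gnptg, a subunit of the enzyme that tags hydrolases for the lysosome (0.82). The largest falls were those of Lamtor5 (-0.77), the channel gene Tpcn1 (-0.41) and Lamtor1 (-0.38). Lamtor5 and Lamtor1 encode parts of the Ragulator complex, which holds mTORC1 at the lysosome.

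Laptm4a signal was 866 and 908 with DMSO, 1154 and 1060 with IFNa, 2370 and 2354 with IFNg, 2697 and 2545 with AMN107, 3036 and 2750 with AMN107-IFNa, and 3143 and 3082 with AMN107-IFNg. Its IFNg arrays lay well above DMSO (1.40, adjusted p = 6.61e-07) and nearer to AMN107. Tfe3, a relative of Tfeb, was at -0.33 without interferon (adjusted p = 0.026), and its average was -0.31. In IFNa minus DMSO, 10 of the 66 were called higher and 2 lower (all genes 12.8% and 4.68%), led by Fnip1 (0.80), Gnptab (0.74) and Cd164 (0.65), with Sort1 (-0.52) and Ctsf (-0.35) lower. Without IFNa replicate 2 it was 7 and 1 (all genes 6.33% and 1.1%), and without IFNa replicate 1 it was 22 and 16 (34.4% and 24.2%). In IFNg minus DMSO, 5 were called higher and 2 lower (all genes 6.12% and 2.93%), led by Laptm4a, Lgmn (0.71) and Rraga (0.69), with Ifi30 (-0.37), a thiol reductase known as interferon-inducible, and Mitf (-0.36) lower.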

How the data were processed

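The authors deposited, for 12 arrays, the signal of every probe set on a linear scale (intensity), summarised with MAS5, per the submitters' processing notes; its version, settings and scaling are not given in the sources used here. Beside 64 control probe sets, the platform annotation gave 1 gene for 34945 probe sets, several for 932 and none for 9160. Signals were taken as log2(signal + 8.66), 8.66 being the 25th percentile averaged over the arrays. Probe sets entered the test if above the array median on at least 2 of 12 arrays, and each gene took its brightest tested probe set. The 12 arrays were fitted together in limma 3.58.1 (R 4.3.3, eBayes with trend), each group with its own mean, with 10 two-sided contrasts, each adjusted by Benjamini-Hochberg over 12188 genes at 0.05. The fit was tested on simulated data. The deviations of equally numbered arrays correlated at -0.143 to 0.312, above 0.1 in 4 of 15 pairs of groups, so numbers were not taken as pairs. Promoter sequences are RefSeq's (GRCm38.p6).

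The genes and lists were chosen with earlier results of these data known. Values on every array are given for the 4 genes of each group with the largest average AMN107 effect and the one with the smallest, up to 4 called for each interferon, those called in an interaction, those near background, and Tfeb; Ctsl, the second probe sets and Laptm4a were added after their values were seen. The closing section gives the alternatives tried; leaving out the IFNa arrays from the average, and 1 IFNa array for the further lysosome genes, was chosen after seeing the data. The number of arrays limits the precision.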

Additional observations from a re-analysis of the deposited data

Results flagged for a closer look

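The AMN107 by IFNg interaction of Ctsa, at -0.81 (SE 0.155, limma adjusted p = 0.0396), was the 1 call among the 41 genes in the 2 interactions tested: IFNg raised Ctsa without AMN107 (0.58) and not with it (-0.23, adjusted p = 0.581). The second, dim probe set of Ctsa did not follow it, and the call was lost in 12 of 24 alternatives.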

How the results depend on the processing

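Of the 82 calls of single genes, 28 held in all alternatives that were run and 1 turned its sign in any: Atp6v0a1 under AMN107-IFNa minus IFNa, at -0.15 with the mean of its probe sets. Contrast by contrast, 17 of 26 calls of the average AMN107 effect held throughout, 7 of 16 of AMN107 minus DMSO, 3 of 9 of AMN107-IFNg minus IFNg, 1 of 12 of AMN107-IFNa minus IFNa, and 0 of 13 and 0 of 4 of IFNa and IFNg minus DMSO. The count of the average effect (26) was 19 to 33 with 1 array left out, and 33 with both IFNa arrays left out. Other counts moved by over 1.5 times, and the cause was not tested. All these counts join higher and lower calls and stand without the share over all genes, which also moves with the setting. For AMN107 minus DMSO that share went from 20.7% higher and 14% lower to 32.2% and 22.8% without both IFNa arrays. A moved count is thus not by itself a result about these genes. For AMN107 minus DMSO (16) it was 25 with array weights and with only the groups of the contrast, and 7 to 24 with 1 array left out. For AMN107-IFNa minus IFNa (12) these were 4, 1, and 4 to 23. For AMN107-IFNg minus IFNg (9) they were 22, 22, and 3 to 22, and 22 without both IFNa arrays. For IFNa minus DMSO (13) array weights and only the groups each gave 0, a stricter filter 8, quantile normalization 5, median centring 20, and 1 array left out 0 to 30. For IFNg minus DMSO (4) array weights and only the groups gave 16, no filter 2, the replicate block 2, without both IFNa arrays 19, and 1 array left out 0 to 19. For AMN107-IFNa minus AMN107 (0) array weights, only the groups and leaving out both IFNa arrays each gave 1, and 1 array left out 0 to 1. For AMN107-IFNg minus AMN107 (1) no filter, median centring, the mean of probe sets and all probe sets gave 0, a stricter filter 2, array weights 6, only the groups 8, without both IFNa arrays 5, and 1 array left out 0 to 5. For the interaction with IFNa (0) 1 array left out gave 0 to 29. For that with IFNg (1) quantile normalization, the mean of probe sets and the replicate block gave 0, array weights 9, only the groups 10, without both IFNa arrays 10, and 1 array left out 0 to 10. The replicate block, which the array numbers do not support as a pairing, moved no other count by over 1.5 times. The median AMN107 minus DMSO effect under quantile normalization was 0.015 for the pump, 0.47 for the membrane proteins and 0.11 for the hydrolases, and the membrane median of the average effect was 0.49 there and 0.46 with the mean of probe sets.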
